A study of Mus musculus with 3 samples.

Results

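The regions described here are the strong Foxp3 CUT&RUN peaks of the first replicate that have no counterpart in the second. They were chosen by 2 measured values: a fold enrichment of at least 10 in replicate 1, and the absence of any replicate 2 peak overlapping by even 1 bp. On chromosomes 1 to 19 and X, replicate 1 had 555534 peaks, of which 49529 (8.92%) reached that fold. Of these strong peaks, 31637 (63.9%) overlapped no replicate 2 peak and are called unshared strong peaks here, while 17892 overlapped at least 1 and are called shared strong peaks. Among all replicate 1 peaks, of any fold, 90.5% overlapped no replicate 2 peak. The 63.9% follows from the rule and is given as a description.

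Foxp3, a DNA-binding protein of the forkhead family, specifies regulatory T cells, where it binds mainly at enhancers and promoters that are already open. CUT&RUN uses an antibody to tether a nuclease to chromatin, so that short DNA fragments are released around the bound factor and sequenced. Bone marrow-derived macrophages (BMDMs) are macrophages grown in culture from marrow progenitors with the growth factor M-CSF. A peak caller reports stretches where fragments pile up above a local or genome-wide background. The fold enrichment is the pileup at the highest point (the summit) plus 1, divided by a background term.

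The series holds 3 mouse BMDM samples, all grown in medium conditioned with M-CSF and fixed with 0.1% formaldehyde for 2 min. Foxp3 replicates 1 and 2 were made with the same anti-Foxp3 antibody, and the third sample was made with an IgG isotype antibody, whose values are not used here. The series title speaks of stimulation with brain-derived danger signals (DAMPs), but no sample is labelled as stimulated or unstimulated. The labels also give no strain or age, nor whether the replicates were separate cultures or animals. Binding data do not measure expression, so the labelled cell type could not be checked against marker transcripts.

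Replicates 1 and 2 were of similar depth, with 33294105 and 34898401 fragments, and differed in the fragment size given by the caller (130 and 180 bp). The peaks of replicate 1 covered 118.7 Mb, against 30.12 Mb for the 94819 peaks of replicate 2 on the same chromosomes. The median fold was 4.92 in replicate 1 and 3.996 in replicate 2, where 298 peaks reached a fold of 10. The lowest summit pileup among the peaks was 10 fragments in replicate 1 and 13 in replicate 2. The peak lists hold no signal between peaks, so fragments of replicate 2 that stayed under its threshold at these sites cannot be seen. With 1 list on each side of the rule there is no replicate error on the unshared set, and every interval given is a 95% binomial or order-statistic interval that covers counting error only. Neighbouring peaks share their library, so peaks were not treated as replicates and no p-value was computed.

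The sequences under unshared peaks at gene starts are shown first, because the base composition of those starts differed from that of starts under shared peaks. A table of RefSeq promoter windows (GRCm38.p6, the assembly of mm10) gives 250 bases before to 50 bases after each annotated start. Of 32619 windows, 787 (2.41%) were overlapped by an unshared strong peak and no shared one, and 7164 by a shared one and no unshared one. The 4 windows overlapped by both are in neither set. The summit of an overlapping peak can lie outside the window. The 6 stretches shown belong to the unshared peaks of highest fold that covered at least 100 of the 250 bases before a start. Each line gives the covered bases before that start, 5′ to 3′ on the strand of the gene, with CG dinucleotides (CpG) in capitals. They lie at chr10:82083192-82083319 (+ strand) for BC024063, chr6:113638252-113638466 (+ strand) for Irak2, which encodes a kinase of Toll-like receptor signalling, and chr11:16257492-16257741 (+ strand) for Vstm2a. The others lie at chr1:72243789-72243992 (+ strand) for D230017M19Rik, chrX:143518406-143518590 (+ strand) for Pak3, a kinase activated by small GTPases, and chr16:16829364-16829515 (- strand) for Spag6l, a relative of a sperm flagellum protein.
BC024063: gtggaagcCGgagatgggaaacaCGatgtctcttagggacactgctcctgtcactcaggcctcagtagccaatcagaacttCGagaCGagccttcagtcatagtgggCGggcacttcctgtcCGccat
Irak2: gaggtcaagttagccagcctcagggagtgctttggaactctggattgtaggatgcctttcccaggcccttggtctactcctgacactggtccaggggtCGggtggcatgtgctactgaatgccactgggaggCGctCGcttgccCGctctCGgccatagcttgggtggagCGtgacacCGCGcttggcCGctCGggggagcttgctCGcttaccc
Vstm2a: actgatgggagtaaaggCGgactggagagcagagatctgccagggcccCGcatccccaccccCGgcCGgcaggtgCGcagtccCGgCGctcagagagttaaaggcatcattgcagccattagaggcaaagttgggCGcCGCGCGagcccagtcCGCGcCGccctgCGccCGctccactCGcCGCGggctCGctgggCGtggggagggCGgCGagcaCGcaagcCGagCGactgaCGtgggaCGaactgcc
D230017M19Rik: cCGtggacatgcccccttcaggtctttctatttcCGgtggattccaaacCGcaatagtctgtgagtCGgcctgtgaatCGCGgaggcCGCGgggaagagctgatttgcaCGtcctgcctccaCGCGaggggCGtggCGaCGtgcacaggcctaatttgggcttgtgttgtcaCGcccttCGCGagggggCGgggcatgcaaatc
Pak3: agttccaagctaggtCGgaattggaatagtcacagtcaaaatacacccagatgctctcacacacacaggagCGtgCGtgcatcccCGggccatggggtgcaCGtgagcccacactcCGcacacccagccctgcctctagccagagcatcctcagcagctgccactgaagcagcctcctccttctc
Spag6l: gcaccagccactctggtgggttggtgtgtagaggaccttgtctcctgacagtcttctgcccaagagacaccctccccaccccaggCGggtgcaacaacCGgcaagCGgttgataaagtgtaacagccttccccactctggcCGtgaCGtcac

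These 6 unshared peaks had folds of 25.06 (Spag6l) to 26.37 (BC024063) and summit pileups of 94 to 130 fragments. The nearest replicate 2 peak lay 212 bp away at Pak3, 5077 bp away at Irak2 and 112951 bp away at Vstm2a. CpG content varied widely among them, with 28 CpG in the 250 bases at Vstm2a, 18 in 204 at D230017M19Rik, 11 in 215 at Irak2 and 6 in 185 at Pak3. The Pak3 stretch holds a short CA repeat, ctcacacacacagg, within which the searched word CACACACA was found on 1 strand at 2 overlapping positions.

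For contrast, the same stretches are shown for the shared peaks of highest fold that met the same conditions, at chr19:8757025-8757219 (- strand) for 1700023D09Rik, with a fold of 36.42, and chr13:58385226-58385415 (- strand) for 2210016F16Rik, with a fold of 35.07. They hold 25 CpG in 195 bases and 20 CpG in 190 bases.
1700023D09Rik: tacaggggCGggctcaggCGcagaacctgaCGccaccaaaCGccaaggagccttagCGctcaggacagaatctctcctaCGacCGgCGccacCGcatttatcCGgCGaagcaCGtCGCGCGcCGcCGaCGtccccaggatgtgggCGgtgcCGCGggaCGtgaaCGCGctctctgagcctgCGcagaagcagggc
2210016F16Rik: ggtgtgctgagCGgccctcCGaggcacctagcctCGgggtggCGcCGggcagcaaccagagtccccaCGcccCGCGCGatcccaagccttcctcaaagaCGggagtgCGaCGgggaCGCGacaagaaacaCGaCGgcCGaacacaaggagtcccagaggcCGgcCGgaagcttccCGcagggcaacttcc

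Over whole 300-base windows, the median GC content was 55.7% (95% interval 55 to 56.3) in the 787 windows overlapped by an unshared peak. It was 65% (64.7 to 65.3) in the 7164 windows overlapped by a shared peak. All 32619 windows had a median of 53%. The median number of CpG per window was 11 (10 to 12) in unshared windows, against 25 (25 to 25) in shared windows and 7 in all windows. By both measures the unshared windows lay nearer to the average gene start than to the CpG-rich starts under shared peaks. The forkhead core word TGTTTAC, searched on both strands, was in 18 unshared windows, or 2.29% (1.36 to 3.59), against 1.81% (1.52 to 2.15) of shared windows and 3.67% of all windows. The word TTTGTTTG, a repeat to which Foxp3 binds in T cells, was in 2.03% (1.17 to 3.28) of unshared windows, against 1.38% (1.12 to 1.68) of shared windows and 2.60% of all windows. Their intervals in unshared and shared windows overlap. The AP-1 word TGANTCA was in 5.84% (4.31 to 7.72) of unshared windows, against 3.56% (3.14 to 4.01) of shared and 7.84% of all windows. The PU.1 word GAGGAAGT, read from a factor that macrophages depend on, was in 3.05% (1.96 to 4.50) of unshared windows, against 2.53% (2.18 to 2.92) of shared and 3.22% of all windows. The repeat word CACACACA was in 4.45% (3.12 to 6.13) of unshared windows, against 2.19% (1.87 to 2.56) of shared and 4.11% of all windows. The intervals of unshared and shared windows overlap for the PU.1 word and not for the AP-1 and repeat words. They cover counting error only. The windows differ in GC content as given above, and its part in these shares was not tested. A word is a run of letters, not a bound site, and no other part of the peaks could be searched because no genome was used here.

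The unshared strong peaks were short and of moderate height. Their median length was 229 bp (228 to 230), with percentiles 10 and 90 at 153 and 433 bp, against a median of 492 bp (487 to 497) for shared strong peaks and 167 bp for all replicate 1 peaks. Of the unshared peaks, 35.7% were shorter than 200 bp, against 5.89% of shared strong peaks and 71.4% of all replicate 1 peaks. At the other end, 815 unshared peaks (2.58%) were at least 600 bp long, against 36.9% of shared strong peaks. The longest unshared peak spanned 1756 bp. A longer peak has more bases with which to meet a replicate 2 peak, so length is tied to the rule by construction.

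The summit pileup of the unshared peaks had a median of 49 fragments, with a range of 37 to 852, against a median of 71 in shared strong peaks and 21 in all replicate 1 peaks. Their median fold was 11.83 and their highest 57.18, against a median of 13.44 in shared strong peaks. The median −log10 q, the caller's own measure of significance, was 38.1 in unshared and 57.2 in shared strong peaks. The background term stood at its lowest value, the genome-wide 3.78, in 54.6% of unshared peaks. This was so in 26.0% of shared strong peaks and 55.6% of all replicate 1 peaks. For such peaks the fold is not relative to their own surroundings. By background, the unshared peaks were like the bulk of the replicate 1 list, while their pileup was more than double its median. These values chose the peaks or come from the same readout, and nothing is read from them beyond the description.

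The unshared share of strong peaks fell with length in every class. It was 95.1% (94.1 to 95.9) of 2384 strong peaks of 130 to under 150 bp, 90.6% at 150 to under 200 bp, 81.4% at 200 to under 300 bp and 61.8% at 300 to under 400 bp. It was then 40.1% at 400 to under 600 bp, 12.9% (12.1 to 13.8) of 6056 peaks at 600 to under 1000 bp and 2.51% (1.74 to 3.49) of 1355 peaks of 1000 bp or more. By fold, it was 74.5% from 10 to 12, 62% from 12 to 15, 48.1% from 15 to 20 and 36.5% (34.4 to 38.5) from 20 to 25. It was near that value in the highest classes, with 36.3% (32.4 to 40.3) from 25 to 30 and 41.5% (34.6 to 48.5) of the 205 peaks of fold 30 or more, 85 of which were unshared.

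**Figure D1:**
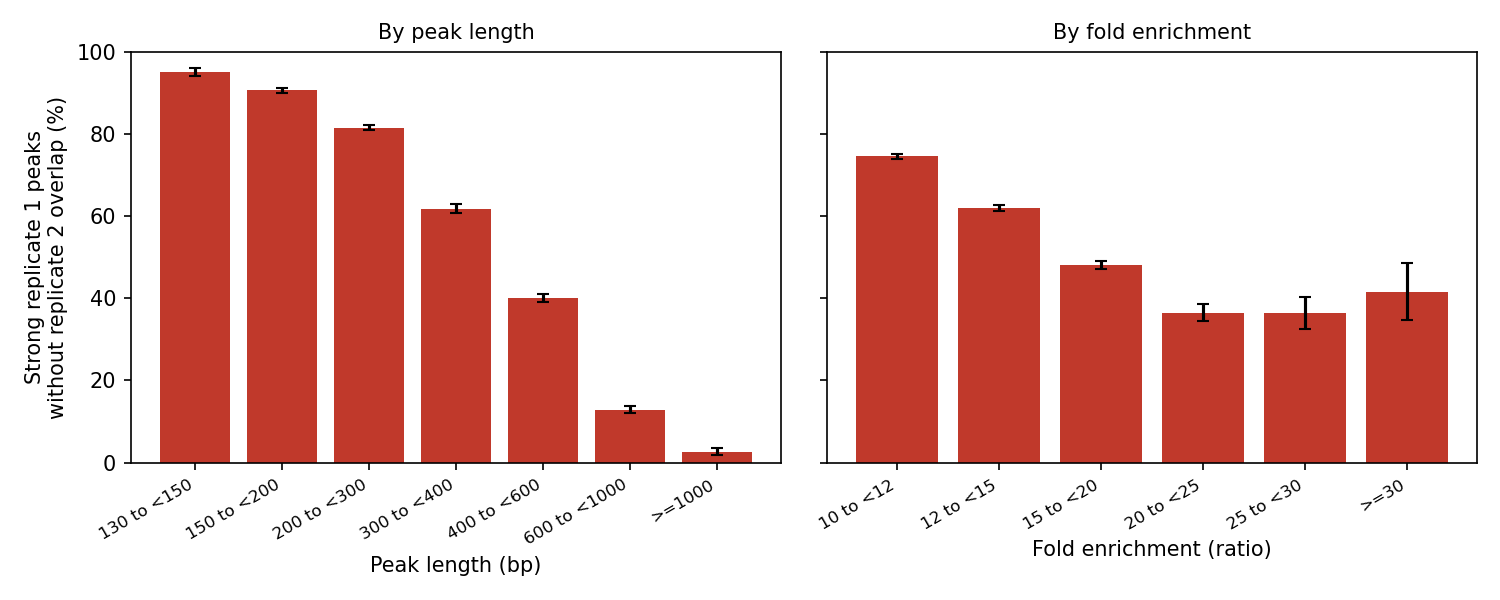
Share of strong replicate 1 peaks (%) without an overlapping replicate 2 peak, by peak length in bp (left) and by fold enrichment (right). Bars are shares and lines are 95% binomial intervals; the share is 95.1% in the shortest class and 2.51% in the longest, and 74.5% in the lowest fold class against 36.3% from 25 to 30 and 41.5% from 30.

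The unshared strong peaks were placed along genes much as replicate 1 peaks in general were, and less often at gene ends than shared strong peaks. A gene end is here either boundary of a protein-coding gene in the RefSeq table. Of the unshared summits, 1601 (5.06%, 4.82 to 5.31) lay within 1 kb of a gene end, against 7086 of the shared strong summits (39.6%, 38.9 to 40.3) and 5.97% of all replicate 1 summits. A further 45.4% lay inside genes and away from their ends, against 27.8% of shared strong summits and 45.1% of all. The remaining 49.6% lay between genes, against 32.6% of shared strong summits and 49.0% of all. More than 100 kb from any gene end lay 23.7% of unshared summits, against 15.5% of shared strong summits and 23.5% of all. The median distance to a gene end was 30741 bp (30020 to 31437) for unshared peaks, against 5222 bp (4659 to 5742) for shared strong peaks and 27758 bp for all replicate 1 peaks.

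**Figure D2:**
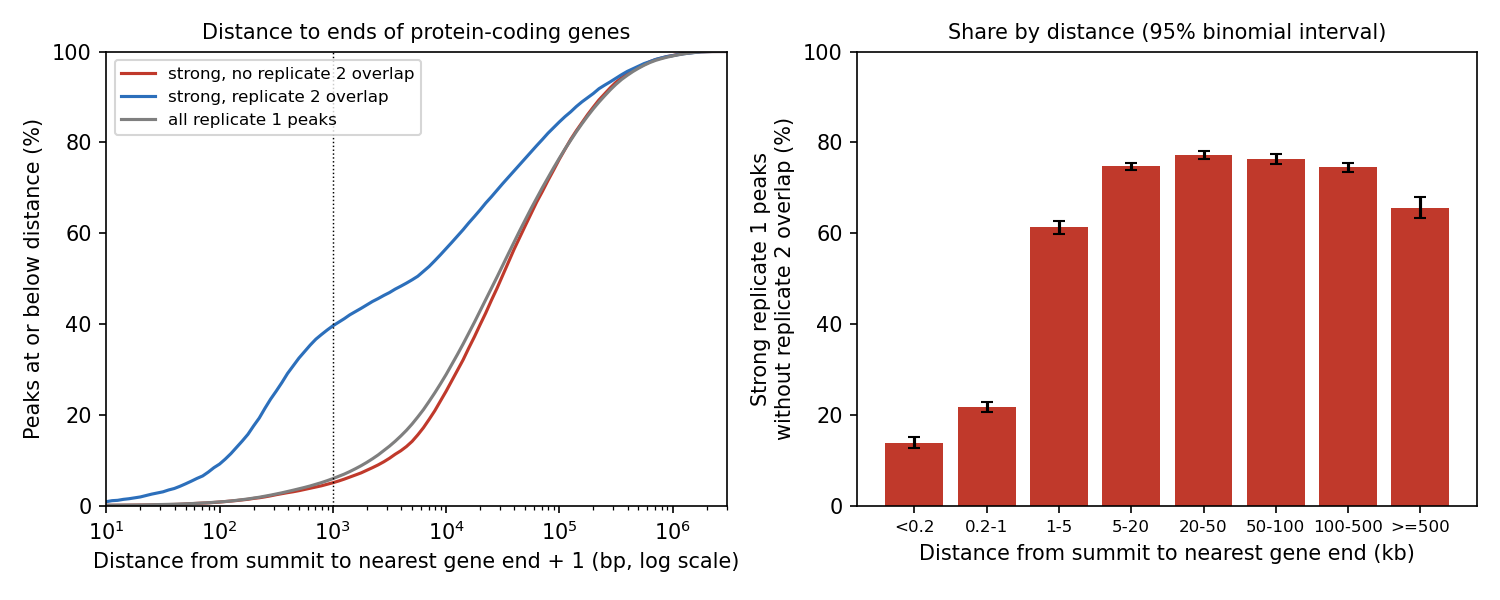
Left, cumulative share of peaks (%) by the distance from summit to nearest protein-coding gene end plus 1 (bp, log axis), for unshared strong peaks, shared strong peaks and all replicate 1 peaks; the dotted line marks 1 kb, where the curves stand at 5.06%, 39.6% and 5.97%. Right, share of strong peaks (%) that were unshared in each distance class in kb, with 95% binomial intervals, from 13.9% under 200 bp to 77.2% at 20 to 50 kb.

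Where the strand of a gene was given by the promoter table (chromosome 18 was not used here), the start and the far end could be told apart. Within 1 kb of a start lay 781 of 30507 unshared summits (2.56%, 2.39 to 2.74), against 32.0% (31.3 to 32.7) of shared strong summits and 3.20% of all replicate 1 summits. Within 1 kb of a far end lay 1.92% (1.77 to 2.08) of unshared summits, against 2.69% (2.46 to 2.94) of shared strong summits and 2.00% of all. Most of the difference at gene ends was thus on the side of the start. Seen from the sites, 13.9% of the 3660 strong peaks under 200 bp from a gene end were unshared, as were 21.7% at 200 to 1000 bp and 61.3% at 1 to 5 kb. Beyond 5 kb the share held between 74.5% and 77.2% up to 500 kb, and it was 65.6% (63.3 to 67.9) of the 1692 strong peaks farther out.

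The share at gene ends differed between unshared and shared peaks of the same length. Among peaks of 130 to under 150 bp, 3% (2.34 to 3.79) of 2267 unshared summits lay at gene ends, against 8.55% (4.17 to 15.2) of 117 shared ones. Among peaks of 200 to under 300 bp, the shares were 4.53% (4.17 to 4.92) of 12066 unshared summits and 19.7% (18.2 to 21.2) of 2751 shared ones. Among peaks of 600 to under 1000 bp they were 11.4% (9.25 to 13.8) of 781 unshared summits and 53.7% (52.3 to 55.0) of 5275 shared ones. The unshared share was the lower one in each of the 7 length classes, the longest of which held 34 unshared peaks. The sets are split by replicate 2 overlap, so this difference also depends on where replicate 2 had peaks. The gene-end share was higher with every step in length among unshared peaks, and up to 1000 bp among shared ones.

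**Figure D3:**
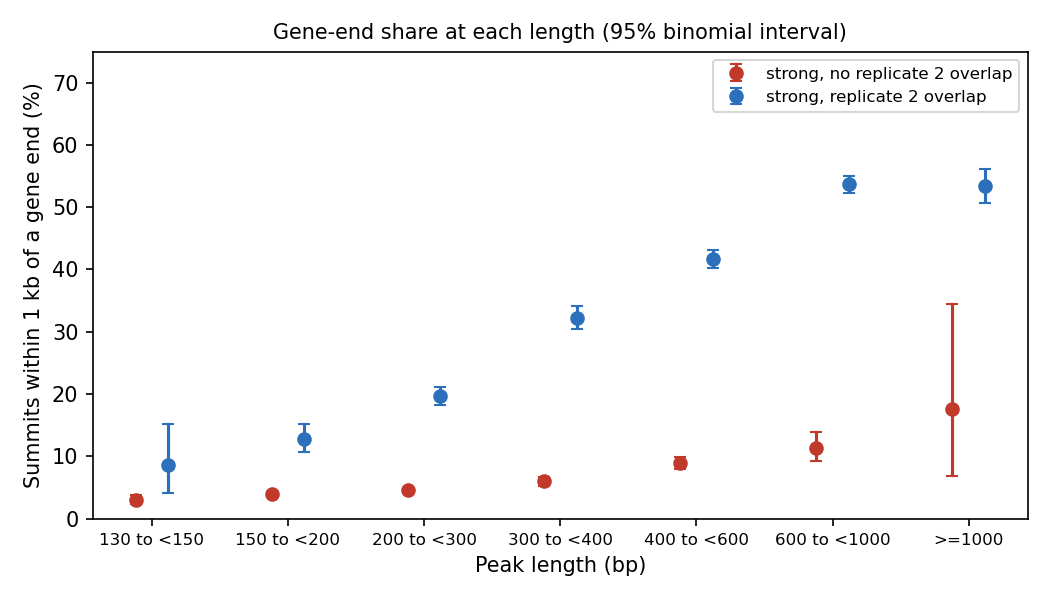
Share of summits within 1 kb of a protein-coding gene end (%) by peak length in bp, for unshared and shared strong peaks. Points are shares and lines 95% binomial intervals; unshared peaks lie between 3% and 17.6% and shared ones between 8.55% and 53.7%, and the unshared point is the lower one at each length.

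Peaks of the same fold differed in the same direction. From fold 10 to 12, 4.60% (4.29 to 4.93) of unshared summits lay at gene ends, against 32.3% (31.1 to 33.5) of shared ones. From fold 20 to 25 the shares were 6.56% (4.93 to 8.54) of unshared summits and 50.15% (47.4 to 52.9) of shared ones, and at fold 30 or more 9.41% (4.15 to 17.7) of 85 unshared summits and 30% (22.0 to 39.0) of 120 shared ones.

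The unshared peaks at gene ends were a little longer and higher than those elsewhere. The 1601 peaks at gene ends had a median length of 264 bp and a median pileup of 58 fragments. The 14356 inside genes had medians of 227 bp and 50 fragments, and the 15680 between genes had 228 bp and 47 fragments. The median fold was 12.07 at gene ends, 11.82 inside genes and 11.79 between genes.

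Most unshared peaks were not near misses of a replicate 2 peak. The nearest replicate 2 peak lay at a median of 8347 bp (8208 to 8472), against 7362 bp for all replicate 1 peaks that overlapped none. It lay within 200 bp of 734 unshared peaks (2.32%), within 1 kb of 9.75% and within 10 kb of 56.2%. At gene ends, 21.4% (19.4 to 23.5) of unshared peaks had a replicate 2 peak within 1 kb, compared with 9.94% (9.46 to 10.4) inside genes and 8.39% (7.96 to 8.84) between genes.

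The spacing of the unshared peaks was taken among themselves, leaving aside weaker replicate 1 peaks. Their nearest unshared neighbour lay at a median of 23354 bp from summit to summit, and 1.65% had one within 1 kb and 23.4% within 10 kb. For the less numerous shared strong peaks the median distance to another shared peak was 42595 bp, with 2.67% having one within 1 kb and 12.3% within 10 kb. Of 2581 bins of 1 Mb that held any peak, 6 held no unshared strong peak. The median bin held 12, percentiles 10 and 90 were 4 and 22, and the highest bin held 34. That bin was on chromosome 5, from 64000001 to 65000000. Its longest protein-coding genes were, in order of length, Tbc1d1, Fam114a1, Pgm2, Klf3, Tlr6 and Tlr1, and Tbc1d1 alone held 11 of the 34. The next 3, with 33 each, lay on chromosomes 13, 14 and 3. The longest genes reaching into them were Ntrk2, a neurotrophin receptor gene, Gtf2f2 and St6galnac3, in that order.

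On each chromosome the unshared peaks outnumbered the shared strong ones. The unshared share of strong peaks lay between 60.6% (chromosome 4) and 66.4% (chromosome 14) on the autosomes, and was 64.2% (63.7 to 64.6) over all of them. On X it was 57.2% (55.0 to 59.3), or 1160 of 2029. Their density was 6.79 per Mb on X, against 11.08 (chromosome 16) to 14.77 (chromosome 11) on autosomes. Shared strong peaks were also sparser on X, with 5.09 per Mb there and at least 5.85 on each autosome. The labels do not give the sex of the animals.

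The unshared peak of highest fold was on chromosome X from 143482991 to 143483120, 35322 bp from Pak3. It was 130 bp long, the shortest length in the list, with a summit pileup of 852 fragments, a background term of 14.92 and a fold of 57.18. Whether its sequence is repeated elsewhere in the genome was not examined. The pileups of the next 9 by fold lay between 150 and 315 fragments. The peak of second highest fold, 47.7, was 299218 bp from Ins1, the nearest protein-coding gene, which encodes an insulin of mice, and those of 44.09 and 42.05 were nearest to Sel1l (390509 bp) and Nwd2 (114078 bp). The fifth, with a fold of 40.62 and 320 bp long, had its summit 4 bp inside an end of Wnt6, which encodes a secreted signalling ligand. Of the 10 highest, 2 more lay inside genes, in Fhit (39.4), a gene at a fragile site, and in Mtus2 (38.45). The others were nearest to Ncam2 (39.94, 1434041 bp away), Gabrp (39.83, 840 bp away) and Mup7 (39.75, 11346 bp away), which belongs to a family of near-identical urinary protein genes where read placement is uncertain. The nearest replicate 2 peak was between 2586 bp (Mtus2) and 176631 bp (near Ins1) from these 10.

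At the threshold, the values ran on without a gap. The unshared peaks just inside it had folds of 10.00021 (in Grm2), 10.00033 (in Adamts2 and in Trak1), 10.00057 (in Camk2g) and 10.00259 (nearest to Arl4c). The peaks just outside, which also overlapped no replicate 2 peak, had folds of 9.99972 (in Adcyap1r1 and in Bicra) and 9.99947 (in Hoxd12, Dchs1 and C2cd2l).

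Of 21631 protein-coding genes, 7273 (33.6%, 33.0 to 34.3) held the summit of at least 1 unshared strong peak. Most of these held few: 4056 held 1, while 670 held 5 or more, 145 held 10 or more and 35 held 15 or more. Gene bodies held 49.1% of the unshared summits and cover 39.1% of the chromosomes (1030 of 2632 Mb, up to the last peak). This placement was not particular to unshared peaks. Inside genes and over 1 kb from their ends lay 45.4% of unshared and 45.1% of all replicate 1 summits. The genes held 1.51 unshared peaks per 100 kb, and 57.8% of the strong peaks in them were unshared. In both values a peak inside overlapping genes counts once for each gene, so 15522 unshared summits gave 15829 counts.

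The genes that hold most unshared strong peaks were very long genes. The top 20 held between 18 and 27 each and 396 together, and they were between 427962 and 1230398 bp long, against a median of 17329 bp for all protein-coding genes. There were 304 genes at least as long as the shortest of them. They were taken for their counts, so their density of 2.30 per 100 kb, against 1.51 in all genes, and their unshared share of 79.2%, against 57.8%, are descriptions.

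Sox5, which encodes a transcription factor of cartilage and nervous system development, held most, with 27. All 27 strong replicate 1 peaks in Sox5 (chromosome 6, from 143828425 to 144782287) were unshared. The gene was taken for this count, so its share is a description. Replicate 2 had 32 peaks within the gene, none of which met a strong one. The folds of the 27 ran from 10.05 to 21.42 with a median of 12.7, and the nearest replicate 2 peak lay 375 bp from the closest of them and 11675 bp away at the median. Asic2, which encodes an acid-sensing ion channel, came next with 25 of 27 strong peaks unshared (92.6%). Its unshared peaks had folds of 10.05 to 16.13, and 44 replicate 2 peaks lay in the gene. In both genes the unshared peaks were spread over most of the gene length.

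**Figure D4:**
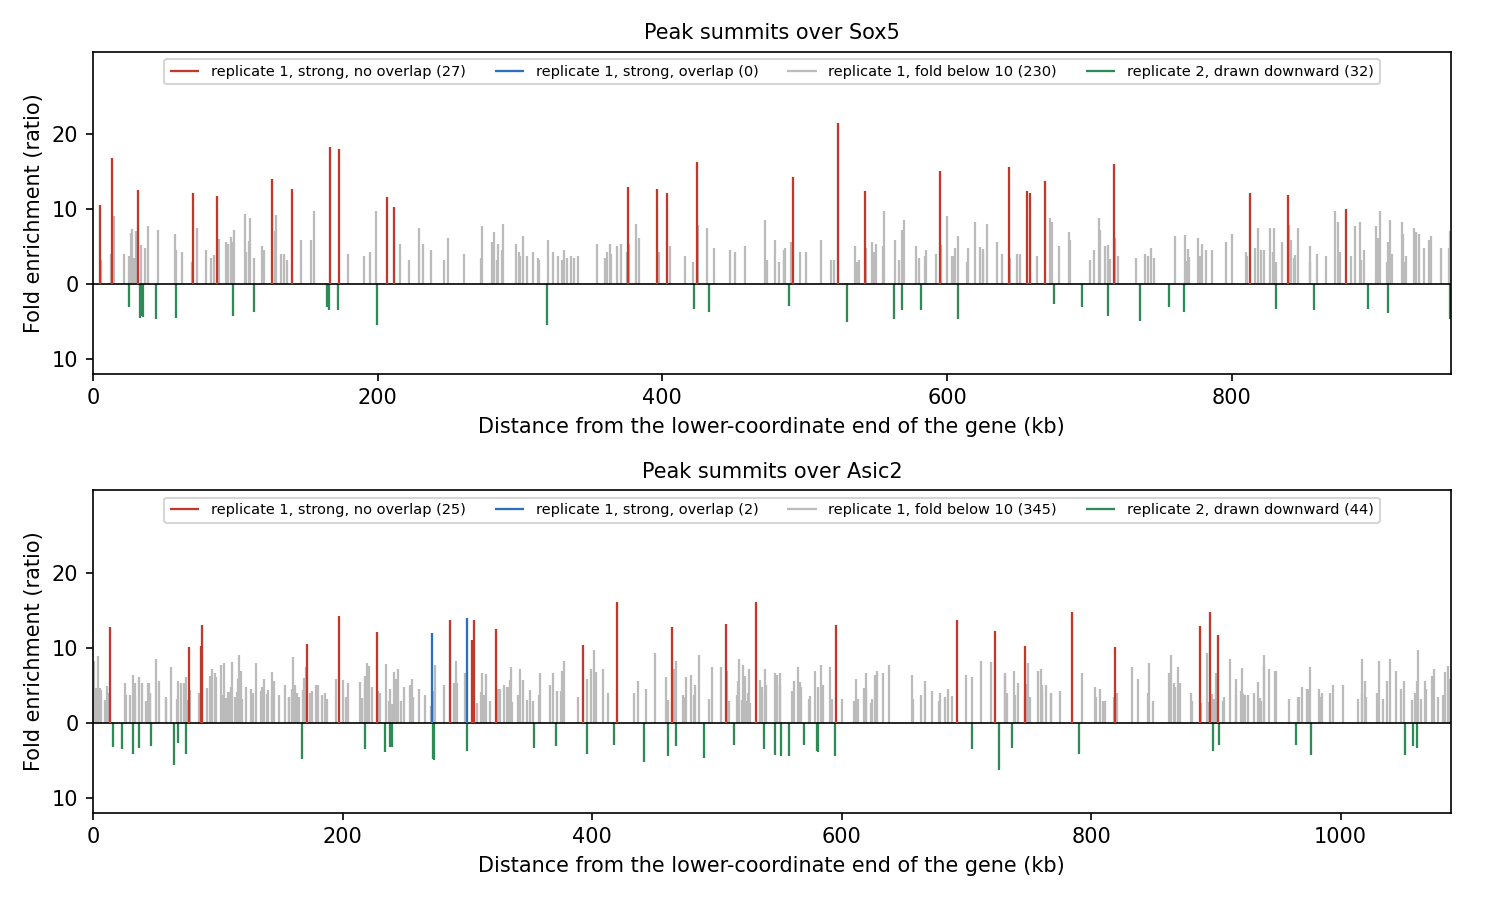
Peak summits along Sox5 and Asic2, by distance from the lower-coordinate end of the gene (kb), with fold enrichment as line height; replicate 1 is drawn upward and replicate 2 downward. Unshared strong peaks number 27 in Sox5 and 25 in Asic2, among 257 and 372 replicate 1 peaks in all, with 32 and 44 replicate 2 peaks in the same genes.

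Wwox, which encodes an oxidoreductase at a fragile site, held 23 of 28 strong peaks unshared, and Cdh13, which encodes a cadherin anchored in the membrane by a lipid, held 22 of 24. St6galnac3, which encodes a sialyltransferase, held 20 of 24 in 526860 bp, or 3.80 per 100 kb. The genes that encode proteins of cell adhesion or contact were the receptor phosphatase genes Ptprt (20 of 25) and Ptprm (19 of 22), Sdk1 (19 of 21), Tenm2 (18 of 23), and Slit3 (19 of 22), which encodes an axon guidance ligand. Synaptic and secretory genes were Dlgap2 (19 of 22), which encodes a scaffold protein, Ptprn2 (19 of 23), which encodes a protein of dense-core vesicles, and Dpp6 (18 of 24), which encodes a potassium channel partner. Genes of nuclear factors were Aff3 (18 of 20), Rora (18 of 22), which encodes a nuclear receptor, Camta1 (18 of 25) and Auts2 (18 of 24). Fstl4 (19 of 22) was the shortest of the 20 and had the highest density, 4.44 per 100 kb, and Rbms3 (19 of 22), which encodes an RNA-binding protein, completed the set. This grouping was made after the genes were known.

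Gm37013 stood apart. It spans the clustered protocadherin genes on chromosome 18 in this annotation, and it held 18 unshared among 53 strong peaks (34.0%). In the other 19 genes the unshared share was 72 to 100%. Gm37013 also held the most replicate 2 peaks of the 20, with 82.

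**Figure D5:**
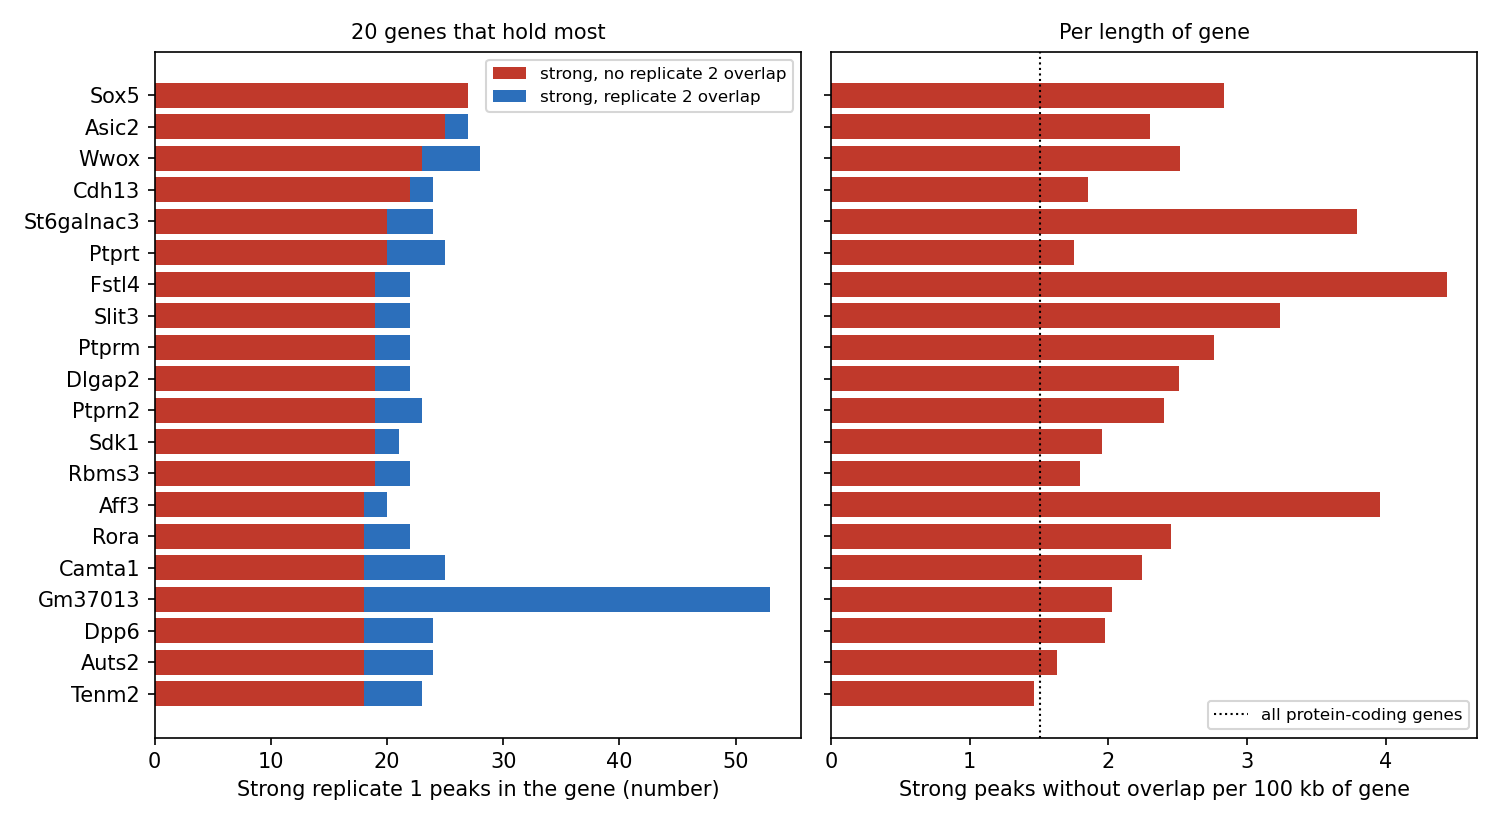
The 20 protein-coding genes with most unshared strong peaks. Left, number of unshared and shared strong replicate 1 peaks in each gene, with Sox5 at 27 and 0 and Gm37013 at 18 and 35; right, unshared strong peaks per 100 kb of gene, from 1.46 (Tenm2) to 4.44 (Fstl4), with the value over all protein-coding genes, 1.51, as a dotted line.

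The share of genes with an unshared peak went up with gene length, and the density did not. The share of genes with at least 1 unshared peak was 5.57% under 5 kb, 17.8% at 5 to 20 kb, 40.8% at 20 to 50 kb, 63.4% at 50 to 100 kb, 83.4% at 100 to 200 kb, 94.5% at 200 to 500 kb and 98.2% in longer genes. Over the same classes the density of unshared peaks was 2.43 per 100 kb in the shortest genes, between 1.53 and 1.71 in the next 5 classes and 0.918 in the longest. The density of shared strong peaks was 7.47 per 100 kb in the shortest genes and went down with every class, to 0.396 in the longest. The unshared share of strong peaks in genes was accordingly 24.6% under 5 kb and 72.4% at 200 to 500 kb, and 69.9% in the longest genes.

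Ranked by density, among genes with at least 5 unshared peaks, shorter genes came first. A minimum of 5 peaks sets a higher lowest density in a shorter gene, so this order follows in part from the ranking. The genes below were taken for their density, and their values are descriptions. Per3, a period gene of the circadian clock, held 6 in 47690 bp, or 12.58 per 100 kb, of 7 strong peaks in all. Uhrf1bp1 held 5 of 5 (11.49 per 100 kb) and Edaradd, which encodes the adaptor of the ectodysplasin receptor, 5 of 5 (10.14). Ttc17 held 9 of 10 (8.50), and Tecta, which encodes a protein of the inner ear's tectorial membrane, 6 of 6 (8.33). Hbs1l, which encodes a factor that rescues stalled ribosomes, held 6 of 6 (8.23). Lrpprc, which encodes a protein that binds mitochondrial RNA, held 7 of 8 (8.18), and Aqr, which encodes a spliceosome helicase, 6 of 6 (8.09). Only 1 replicate 2 peak lay within Per3 and 1 within Tecta, and the other 6 genes held between 2 and 7.

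Gene lists chosen by function were read against the 33.6% of all protein-coding genes that held an unshared peak. They differ in gene length, and no set was tested. Of 30 very large genes, all held at least 1, with 3 to 23 each, led by Wwox (23) and Cdh13 (22), at 0.695 per 100 kb against 1.51 in all genes. Of 22 genes of LC3-associated phagocytosis, the pathway by which phagocytes couple LC3 to a single-membrane phagosome, 10 held at least 1 (45.5%, 24.4 to 67.8), at 2.23 per 100 kb. They were led by Uvrag, whose product forms part of the pathway's lipid kinase complex, with 10 of 13 strong peaks unshared and 10 of the list's 24 unshared peaks, and by Atg7, which encodes an activating enzyme of LC3 conjugation, with 4 of 6. Of 28 genes known as Foxp3 targets in regulatory T cells, 13 held at least 1 (46.4%, 27.5 to 66.1), at 1.62 per 100 kb, with 3 of 3 in Entpd1, which encodes an enzyme that degrades extracellular ATP. Of 28 macrophage identity genes, 9 did (32.1%, 15.9 to 52.4), at 1.69 per 100 kb, led by Mitf, which encodes a transcription factor, with 5 of 7 and by Mertk, which encodes a receptor for dying cells, with 3 of 3.

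Of 30 housekeeping genes, 5 held an unshared peak (16.7%, 5.64 to 34.7), at 1.12 per 100 kb, among them B2m with a fold of 14.28 and Gusb with a fold of 20.36, both at a gene end. Of 34 genes of other tissues 7 did (20.6%, 8.70 to 37.9), at 1.56 per 100 kb, with 2 peaks in Mbp, a myelin gene, and 1 in Ckm, a muscle creatine kinase gene. Of 1110 olfactory receptor genes 41 did (3.69%, 2.66 to 4.98), at 1.93 per 100 kb, such as Olfr491 and Olfr981, and of 355 vomeronasal receptor genes 13 did (3.66%, 1.96 to 6.18), at 0.356 per 100 kb, such as Vmn1r203 and Vmn2r70. The last 2 families consist of closely related genes, with median lengths of 950 and 963 bp, in which reads can be placed at more than 1 copy. Read placement in them was not examined.

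Rubcn, which encodes Rubicon, a protein needed for LC3-associated phagocytosis, held 1 unshared and 2 shared strong peaks. The unshared peak, from 32828699 to 32828921 on chromosome 16, had a fold of 11, a pileup of 76 fragments and a replicate 2 peak 1253 bp away, and its summit was 48956 bp from the annotated start. The 2 shared peaks had folds of 19.11 and 21.92, and the higher one had its summit 38 bp from that start. At Rubcn, therefore, the start belonged to the shared set. The unshared peak lay inside the gene, which is 56028 bp long, toward its far end.

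Foxp3 itself held 2 strong peaks, both unshared, and no replicate 2 peak lay in the gene. They ran from 7586127 to 7586566 and from 7591360 to 7591630 on chromosome X, with folds of 14.71 and 10.74 and pileups of 83 and 93 fragments. Their summits were 6768 and 11804 bp from the annotated start, and the nearest replicate 2 peaks lay 12059 and 17213 bp away. The peak of lower fold had the higher pileup, over a higher background term.

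Few microRNA hairpins lay under unshared strong peaks, which were themselves only 31637 of the 555534 replicate 1 peaks. Of 1005 hairpins in the RefSeq table, 20 (1.99%, 1.22 to 3.06) were overlapped by an unshared strong peak, against 41 (4.08%, 2.94 to 5.49) by a shared one and 278 (27.7%) by any replicate 1 peak. The 20 hairpins lay under 17 peaks. Their 34 mature products listed in the table had 33 different seeds (bases 2 to 8, which pair with target transcripts), and the seed AGGUCAC was shared by products of Mir370 and Mir1193. A peak over a hairpin says nothing about the level of the miRNA. Mature sequences of 6 hairpins are shown, chosen after their values were seen, with the seed in capitals, the pair with a common seed last.
mmu-miR-17-5p: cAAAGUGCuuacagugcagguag
mmu-miR-18a-5p: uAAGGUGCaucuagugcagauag
mmu-miR-744-5p: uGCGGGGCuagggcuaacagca
mmu-miR-210-3p: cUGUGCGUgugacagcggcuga
mmu-miR-370-5p: cAGGUCACgucucugcaguu
mmu-miR-1193-3p: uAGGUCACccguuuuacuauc

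One peak on chromosome 14, from 115043648 to 115043866, covered the hairpin of Mir17 and touched that of Mir18, both in a cluster known for promoting cell proliferation. It had a fold of 13.87 and a pileup of 93 fragments, and the nearest replicate 2 peak lay 1358 bp away. The miR-18a-5p bases shown above start at 115043867, past the end of this peak, so none of them lies under it. The peak over Mir744, on chromosome 11, had a fold of 19.04, the second highest over a hairpin after Mir7217 (19.42), and a replicate 2 peak 52688 bp away. The peak over Mir210, the hypoxia-induced miRNA, had a fold of 11.91 and a replicate 2 peak only 144 bp away. The peaks over Mir370 and Mir1193, on chromosome 12, had folds of 10.11 and 10.01, close to the threshold. The second of these also covered part of Mir679.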

How the data were processed

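Foxp3 CUT&RUN peak lists of 2 mouse BMDM libraries were analysed. Per the file headers, the authors called peaks in each library separately with MACS 2.1.1.20160309 from paired fragments, at a q-value of 0.01, with an effective genome size of 1.87e+09, a regional background of 10000 bp, all duplicates kept and no control sample. Per the submitters' processing notes the build was mm10 and CASAVA 1.4 was used. Not given in the sources used here is the aligner. The deposited values are, per peak, the summit pileup (a signal, in fragments), the fold enrichment (a ratio) and −log10 p and −log10 q. The fold is thus relative to each library's own regional or genome-wide background, not to IgG or to the other library. The lists hold no values outside peaks.

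Overlaps, distances and gene positions were computed in Python 3.11.15 with numpy 2.4.6, pandas 2.3.3 and scipy 1.17.1, and plots with matplotlib 3.10.9. Peaks on chromosomes 1 to 19 and X were kept, and coordinates are 1-based. Genes were placed by the peak summit in the protein-coding genes of the RefSeq table of GRCm38.p6. Strand was known for 17274 of 21631 genes. Shares have exact Clopper-Pearson 95% intervals and medians have order-statistic intervals. The functions for overlap, distance and gene position were tested on simulated peaks and genes with known answers. The 95% intervals were not part of that test. Genes were named by rule: the 20 with most unshared peaks, the 8 densest with at least 5, the 10 unshared peaks of highest fold, the 5 on either side of the threshold, the 5 densest bins of 1 Mb (of which 1 is not reported here), the 2 leading genes of each list, and Rubcn and Foxp3. The minimum of 100 covered bases for printed promoter stretches and the choice of printed miRNAs were made after the values were seen. The rule for the peaks and the gene lists were chosen with earlier results of these data known. Alternatives were stricter folds, other overlap rules, ranking by q, other gene windows and annotations, and a single length class.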

Additional observations from a re-analysis of the deposited data

Results flagged for a closer look

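Outside chromosomes 1 to 19 and X, in sequences that the comparisons above do not use, replicate 1 had 1001 peaks, of which 80 had a fold of at least 10. Of these, 34 overlapped no replicate 2 peak. No control library was used, so they are given as a count only.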

How the results depend on the processing

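Of 58 values recomputed under alternatives that changed the set or its placement, 13 stayed and 45 moved, where a share or median moved if it left its counting interval and a count if it changed by more than 1.5 times. In each alternative the gene-end share of unshared peaks was below that of the other strong peaks, for example 4.53% against 19.7% at 200 to under 300 bp. With a fold of at least 15 there were 5188 unshared peaks (45.2% of strong ones), of median length 255 bp, with 6.67% at gene ends, 43.6% inside genes, a neighbour at 145045 bp, a replicate 2 peak at 9265 bp, 9.55% of genes hit and 8 in the leading gene, Sox5. With a fold of at least 20 there were 1079 (36.8%), of 266 bp, with 6.95% at gene ends, 41.3% inside genes, a neighbour at 748379 bp, a replicate 2 peak at 10555 bp, 2.25% of genes hit and 3 in the leading gene, Ptprg.

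Where only an overlap of 50% of both lengths counted as shared, the values were 73.1% unshared, 240 bp, 8.82% at gene ends, 43.7% inside genes, 20696 bp to a neighbour, 6766 bp to a replicate 2 peak and 39.3% of genes, and Gm37013 led with 30. Where a replicate 2 peak within 1000 bp counted as shared, they were 57.65% unshared, 4.41% at gene ends, 26156 bp, 9618 bp and 30.9% of genes. Ranking by −log10 q, with the same number of strong peaks, gave 58.8% unshared, 241 bp, 7.08% at gene ends, 50.9% inside genes, 20423 bp, 6103 bp and 37.4% of genes, and Camta1 led with 27. A gene-end window of 5000 bp gave 14.1% at gene ends and 39.6% inside genes. All annotated genes in place of protein-coding ones gave 10.95% at gene ends, 50.5% inside genes and 21.0% of genes hit. Placing peaks by any overlap gave 5.48% at gene ends. Peaks of 200 to under 300 bp alone, added after the data were seen, were 81.4% unshared with 4.53% at gene ends. The cause of these shifts was not tested, beyond the fewer or different peaks that each alternative keeps by construction. Leaving out peaks with a pileup of 1000 or more removed no unshared peak, so those values are not counted here.

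No paired analysis was possible because the rule sets 1 replicate against the other, and for the same reason neither replicate can be left out. The set rests on 1 library. A peak absent from replicate 2 means only that nothing there passed that library's threshold, and whether fragments lay at the site cannot be seen. The part of duplicate reads and of the 2 fragment sizes in the counts was not tested.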
